A study of Mus musculus with 48 samples.

Results

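The genes described are those for the protein components of the cytosolic ribosome, measured in epidermal cells brought into suspension. The cells came from the skin of adult mice, aged 18 to 25 weeks, or of aged mice, aged 80 to 90 weeks. The genes are the rows of the count matrix whose gene symbol starts with Rpl or Rps and a digit, or is Rplp0, Rplp1, Rplp2 or Rpsa. Pseudogene symbols containing -ps and the Rps6k kinases were left out, and at least 10 counts in at least 4 libraries were asked for. This gave 86 genes of 24996 rows. They comprised 77 canonical ribosomal proteins (46 of the large and 31 of the small subunit), 4 paralogs (Rpl22l1, Rpl36al, Rpl7l1 and Rps27l), 4 retrocopies or lineage-specific copies (Rps4l, Rpl32l, Rpl37rt and Rps23rg1) and Rps19bp1. The last carries the name but encodes a protein that binds Rps19 and not a ribosomal protein. Another 5 symbols fell under the count limit. Of these Rpl10l, Rpl6l and Rps27rt had at most 1, 2 and 3 counts in any library, and Rpl3l and Rpl39l at most 11 each.

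Sampling was every 4 h from ZT0 to ZT20 (Zeitgeber time, counted from lights on), which makes 6 times and, with both ages, 12 groups of 4 libraries. The labels used here name neither strain nor sex. They also leave unsaid whether replicates are separate animals, so the p-values measure only how far these samples spread. RNA was sequenced as stranded total RNA after removal of ribosomal RNA, so the RNA part of the ribosome was not measured. Total counts ran from 40761084 to 49229498 per library, with a median of 45299730. Basal keratinocyte markers fitted the labelled tissue: Krt5 and Krt14 had at least 75166 and 58502 counts in every library. Of the endothelial markers, Cdh5 and Kdr had at most 20 and 26 counts, Pecam1 at most 54 and Vwf 42 to 110. Of the testis germ cell markers, Prm1, Prm2, Tnp1 and Ddx4 had at most 4 and Sycp3 30 to 82. The striated muscle gene Acta1 had 245 to 603 and the erythrocyte gene Hba-a1 204 to 829. Of the dermal fibroblast markers, Dcn had 5 to 1280, Col3a1 2 to 928 and Lum at most 57. Among the differentiated keratinocyte markers, Krt10 had at least 103507 counts, while Flg had 16 to 404 and Lor 132 to 3109.

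A ribosome is built from a small subunit, which reads the messenger RNA, and a large subunit, which joins amino acids. Cells make the ribosomal proteins in matched amounts, and most of their messenger RNAs begin with a stretch of pyrimidines (the terminal oligopyrimidine, or TOP, motif) through which the kinase mTORC1 and the protein Larp1 set their translation and stability. Such control acts in large part on translation, which RNA counts do not show. In the epidermis, dividing basal keratinocytes are the main site of protein synthesis for growth, and the cells lose their ribosomes as they cornify.

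The start regions of genes on which the results turn are shown first, to let the pyrimidine run be seen beside the values. Each window is 30 bases of the RefSeq promoter table (GRCm38.p6), 20 before and 10 from the annotated start, and capitals mark the longest run of C and T that begins with C and is at least 6 long, while shorter runs stay in lower case. Rps6, whose product is the substrate of S6 kinase, lies at chr4:86857358-86857387 on the minus strand. Rps15a lies at chr7:118116138-118116167 on the minus strand. Rps27 lies at chr3:90213639-90213668 on the minus strand, and its paralog Rps27l at chr9:66946066-66946095 on the plus strand. Rpl22l1 lies at chr3:28805488-28805517 and Rps16 at chr7:28350669-28350698, both on the plus strand.
Rps6: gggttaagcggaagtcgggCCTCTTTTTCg
Rps15a: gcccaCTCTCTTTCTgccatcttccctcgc
Rps27: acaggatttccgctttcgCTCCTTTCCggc
Rps27l: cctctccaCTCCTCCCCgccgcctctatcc
Rpl22l1: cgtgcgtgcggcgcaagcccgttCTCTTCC
Rps16: taaagcccgcttctgtcgtgacgtagcact

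In Rps15a and Rps27l the run in capitals lies wholly before the annotated start. In Rps15a a shorter run, in lower case, begins at the start itself. Rps16 held no run of at least 6 that begins with C in its window. Of the windows not shown, those of Rplp0 and Rps4x, of both annotated starts of Rpl22 and of the second annotated start of Rps27l held none either. The windows rest on the RefSeq starts. In the GENCODE annotation Rps16 begins earlier, at chr7:28350652, outside its window. The promoter table had 65 of the 86 genes, and 42 of them (64.6%) held such a run within 20 bases of the start, against 32.8% of the 27025 genes of the table. With a C at the start itself and at least 4 pyrimidines after it, the share was 21.5% (14 genes) against 3.01%. From 250 bases before to 50 after the start, on both strands, the ETS core CCGGAAG was in 38.5% of the promoters (25 genes) against 9.93% of all, and the YY1 motif AAGATGG, which can share letters with it, in 15.4% (10 genes) against 7.28%. The E-box CACGTG, the site of the clock proteins Bmal1 and Clock and of Myc, was in 9.23% (6 genes: Rpl13a, Rpl14, Rpl19, Rpl23, Rpl34 and Rps19) against 8.09%. A match is a description of the letters and not evidence of binding.

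Together the 86 genes took 2.47% to 4.62% of all counts, with a median of 3.63% over the 48 libraries. The share was 3.52% ± 0.52 (SD, n = 24) in adult and 3.62% ± 0.47 (SD, n = 24) in aged epidermis. The ages overlapped over most of their range. Because the RNA was taken from a mixture of cells, fewer cells of a type and less RNA per cell cannot be told apart in any of these values.

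**Figure D1:**
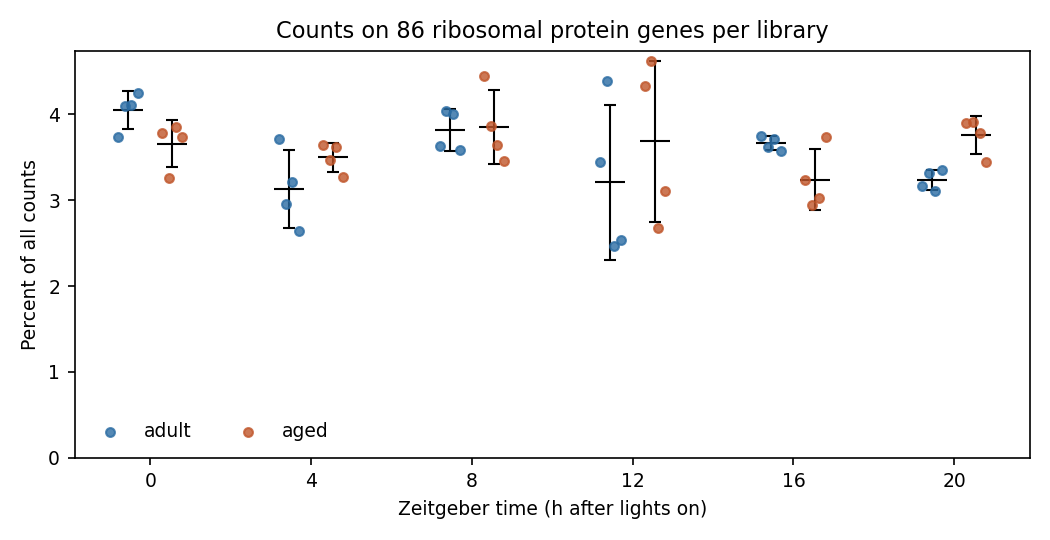
Percent of all counts that fell on the 86 ribosomal protein genes (vertical axis) against Zeitgeber time in hours (horizontal axis), adult in blue and aged in orange. Points are libraries, and the black dash and bars give the mean and SD of 4 libraries. The ZT12 libraries of both ages are spread over 2.47% to 4.62%, and at ZT20 the aged libraries (3.45% to 3.91%) lie above the adult ones (3.11% to 3.35%). With the scaling used in the tests the ages overlap at ZT20, with sums of 30344 to 33946 CPM in adult and 32330.5 to 38346 CPM in aged libraries.

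Levels per length are CPM (counts per 1000000 of the scaled library) divided by a transcript length in kilobases. The length is that of the middle transcript by length among the GENCODE transcripts paired with a RefSeq accession. The highest level was that of Rplp1, an acidic protein of the stalk that recruits elongation factors, at 1286 CPM per kilobase (median of 48 libraries). Rps24 followed at 1221, Rps4x at 1084 and Rps12 at 1083. Genes for which a long transcript was used come out low on this scale, so that the 56.3 of Rps15a rests on 1 transcript of 5179 bases. The non-canonical copies with a length were lower than most canonical genes: Rpl36al stood at 159, Rpl22l1 at 90.3, Rps27l at 69.7, Rps23rg1 at 23.4, Rpl7l1 at 22.1 and Rps4l at 4.35 CPM per kilobase. Many of these genes have near-identical copies elsewhere. In the 84 genes with GENCODE transcripts, the median share of 50-base stretches also present in a transcript of another gene was 50%, and the highest was 93.3%. The sources used here do not say how reads with several matches were counted, so levels of single members are uncertain to that extent. In addition, 30 members hold 60 small nucleolar RNA genes within their spans.

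The canonical genes rose and fell as one block from library to library. After removing the group means, 1 component held 93.4% of the variance of the 77 genes and the next 1.28%, and all 77 genes had the same sign on the first. The Pearson correlation of within-group deviations between pairs of canonical genes had a median of 0.94 and a lowest value of 0.76, over libraries that share their depth and scaling. The within-group SD of a canonical gene was 0.17 on the log2 scale at the median (0.14 to 0.23), against 0.20 for all genes tested. It was 0.15 at the median for the 1424 genes with a mean log2 CPM within 2 of the canonical median or above. Against genes of such levels the canonical genes thus spread more. After the mean of the canonical genes in each library was subtracted, the median SD was 0.04. Rps16 was the gene left with the most spread, 0.12, followed by Rpl39 (0.08), Rplp2 (0.07) and Rps15a (0.07).

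**Figure D2:**
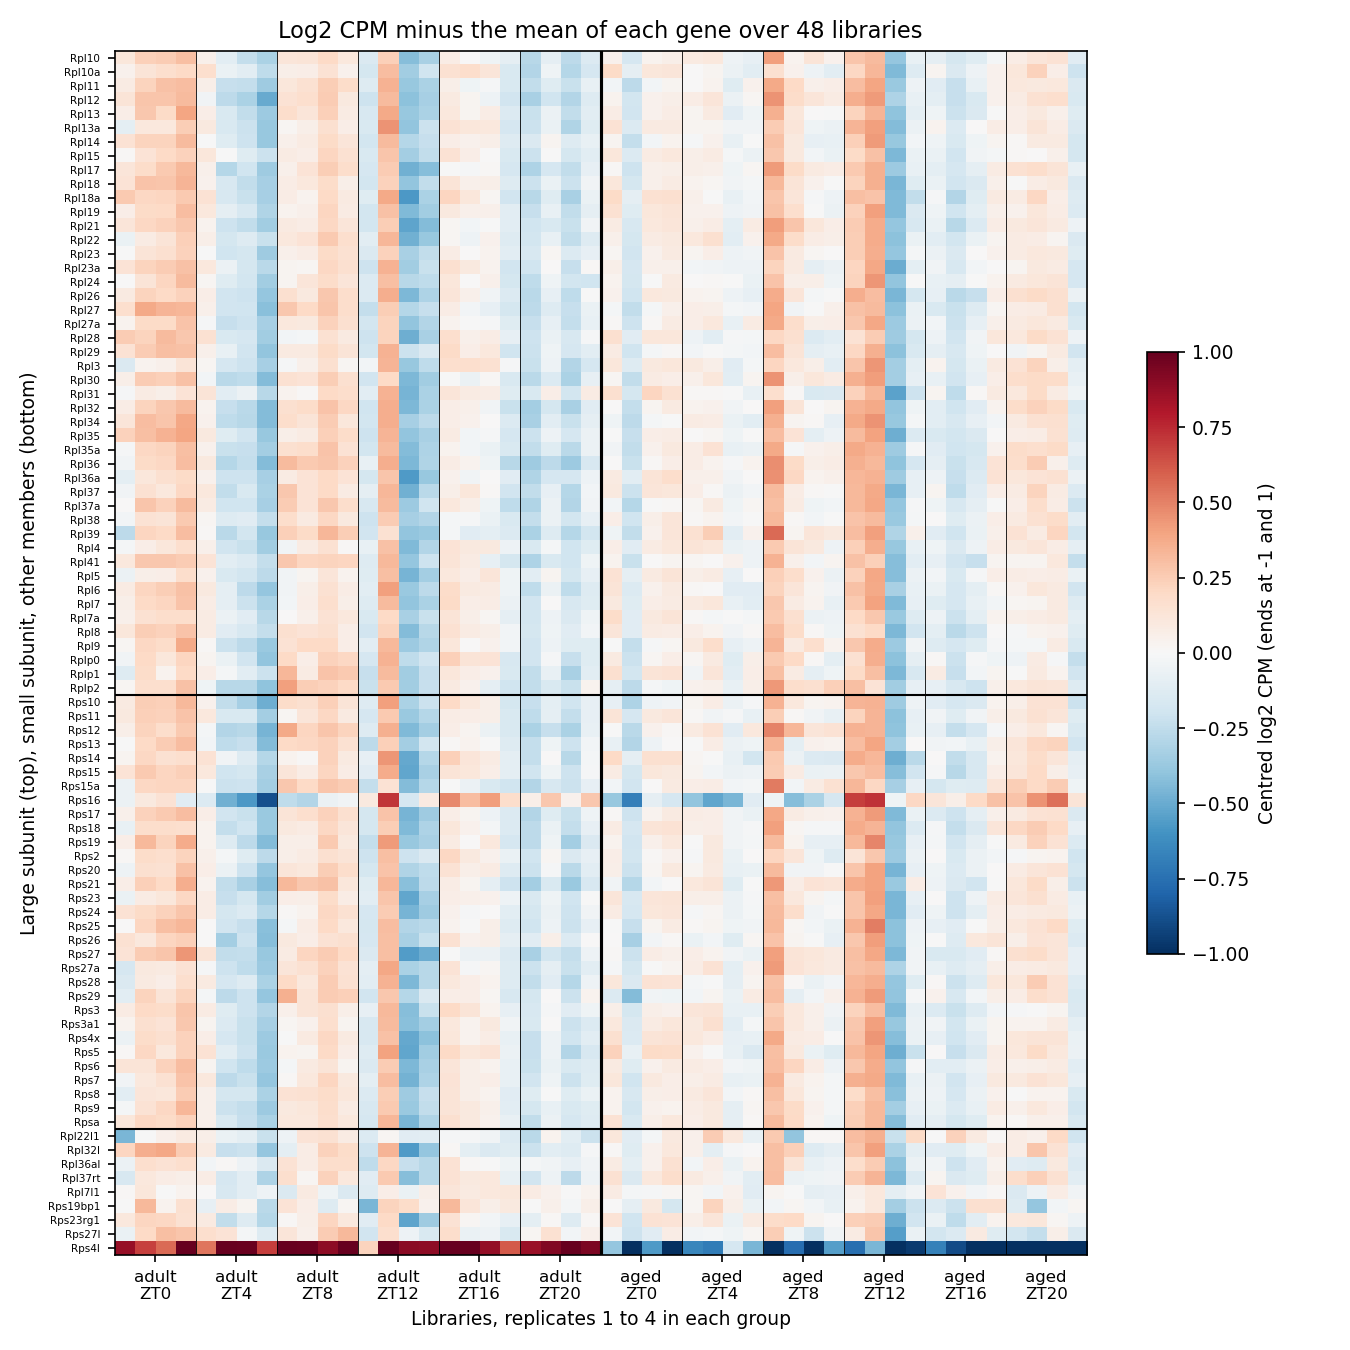
Log2 CPM of each of the 86 genes minus its mean over 48 libraries, in color, with genes in rows (large subunit, small subunit and other members, top to bottom) and libraries in columns by age and time. Whole columns share a color in the canonical genes, Rps16 departs from its neighbours, and Rps4l at the bottom is high in adult and low in aged libraries.

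This common movement was widest at ZT12. The median SD of the canonical genes among 4 libraries was 0.32 in adult and 0.35 in aged epidermis at ZT12, and 0.06 to 0.17 in the other 10 groups. For Rplp0, the base of the stalk, the adult ZT12 libraries had 1170, 1671, 1105 and 1151 CPM and the aged ones 1462, 1692, 992 and 1238 CPM. The highest library exceeded the lowest by more at ZT12 than the ages differed. In adult ZT12 libraries 1 to 4 the summed share of the ribosomal protein genes was 3.45%, 4.39%, 2.47% and 2.54%. In the same libraries the summed CPM of the 7 basal keratinocyte markers was 14910, 14807, 7980 and 8048, that of the 7 differentiated keratinocyte markers 4204, 6466, 11242 and 9810, and that of the 7 Langerhans cell markers 345, 348, 29.0 and 63.7. In aged ZT12 libraries the share was 4.33%, 4.62%, 2.68% and 3.11%, beside basal sums of 15367, 17225, 11931 and 11683, differentiated sums of 5060, 7772, 6221 and 10386 and Langerhans sums of 376, 209, 146 and 107. Replicates 3 and 4 were thus the low ones in both ages, with lower basal and Langerhans sums, and the part of cell makeup in this was not tested.

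Over all times, age left the canonical ribosomal protein genes within a narrow band. None of the 77 passed the test (edgeR quasi-likelihood, Benjamini-Hochberg adjusted p under 0.05 over 18044 genes), and at an unadjusted p under 0.05 there were 4 (all genes 43.1%). DESeq2 likewise called none of the 77. Single libraries of ZT12 bore on this count: without adult ZT12 replicate 2, which had the highest adult share, 10 members (11.6%) were higher with age, all but Rpl22l1 canonical, against 16.8% of all genes in the same fit. Without aged ZT12 replicate 3, which had the lowest aged share, 5 members (5.81%) were, against 15.9% of all genes. Of all 86 genes 3 were called, beside 33.1% of all genes tested. They were Rpl22l1 higher (all genes 17%) and Rps4l and Rps27l lower (all genes 16.2%) in aged epidermis. The log2 fold change of aged over adult had a median of 0.05 in the canonical genes and of 0.01 in all genes tested. In the canonical genes it ran from -0.02 to 0.12, with 68 of 77 values positive, and the 95% intervals of all 77 genes lay between -0.14 and 0.23. With the ZT12 libraries left out, a choice made after seeing the data, the canonical median was 0.02, with 51 values positive and 26 negative. Since these genes move together, their signs are not separate observations.

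The stalk and the proteins at the active sites had these values. Rplp0 ran from 1002 to 1671 CPM (median 1320) in adult and from 992 to 1692 (median 1325) in aged libraries, with a log2 fold change of -0.00 (SE 0.05). Rplp1 and Rplp2, the paired acidic stalk proteins, had 0.02 (SE 0.05) and 0.04 (SE 0.04). Rpl3, which lies near the peptidyl transferase center, had 0.08 (SE 0.05), and Rpl10, which joins the large subunit late in its assembly, 0.05 (SE 0.05). None of these genes was called.

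Rpl5 and Rpl11, which with 5S ribosomal RNA can bind Mdm2 and so stabilize p53, had log2 fold changes of 0.07 (SE 0.05) and 0.04 (SE 0.05). Rpl26, which binds p53 messenger RNA in human cells, had 0.04 (SE 0.05). Of the small subunit, Rps6 had 0.07 (SE 0.05), Rpsa, also known as a laminin receptor, 0.03 (SE 0.05), and Rps19, mutated in Diamond-Blackfan anemia in humans, 0.05 (SE 0.06). Rps27a, made as a fusion with ubiquitin, had 0.08 (SE 0.05). The canonical genes nearest to the threshold were Rpl39, a small protein of the exit tunnel, at 0.12 (SE 0.05; edgeR adjusted p = 0.0680) and Rpl36a at 0.12 (SE 0.05; edgeR adjusted p = 0.0712).

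Rps4l was the exception to this narrow band. It is a single-exon copy of Rps4x on mouse chromosome 6, at chr6:148354656-148355596 in GRCm38, and RefSeq lists it as a transcribed pseudogene. In adult libraries it had 4.66 to 10.2 CPM (median 7.53) and in aged ones 1.31 to 3.55 CPM (median 2.10). No aged library reached the lowest adult one, an order seen in 0.072% of all genes tested. The labels used here name no strain, so a difference in genetic background between the adult and aged mice, if there was one, cannot be told apart from age in this gene. Its log2 fold change was -1.78 (SE 0.08; edgeR adjusted p = 1.58e-20). At ZT20, where the difference was widest, the adult libraries had 7.28, 7.58, 8.15 and 7.66 CPM and the aged ones 1.51, 1.40, 1.31 and 1.99 CPM. It was called at each of the 6 times, with log2 fold changes from -1.34 (SE 0.19) at ZT4 to -2.30 (SE 0.20) at ZT20, and it stayed called without any 1 of the 48 libraries. Whether its age effect differed between times did not pass (edgeR adjusted p = 0.218).

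Reads of Rps4l can be told from those of Rps4x. The transcripts aligned over 820 columns at 80% identity with 149 mismatches, and 14.9% of the 50-base stretches of Rps4l occurred in another gene, which was Rps4l-ps alone. The stretch richest in mismatches, 90 bases with 26 mismatches from the GENCODE transcripts, is shown with the differing bases in capitals. It covers bases 85 to 174 of the Rps4l transcript and 125 to 214 of the Rps4x transcript.
Rps4l: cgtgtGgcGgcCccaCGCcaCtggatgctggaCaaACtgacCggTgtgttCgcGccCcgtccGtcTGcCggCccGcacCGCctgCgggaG
Rps4x: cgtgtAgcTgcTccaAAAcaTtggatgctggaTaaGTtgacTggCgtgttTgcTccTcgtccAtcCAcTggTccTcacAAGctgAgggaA
Rps4x itself, the X-linked small subunit gene, ran from 724 to 1266 CPM (median 1016) in adult and 771 to 1404 (median 1088) in aged libraries, with a log2 fold change of 0.09 (SE 0.05; edgeR adjusted p = 0.229). Rps4l lies within Tmtc1, a gene on the opposite strand, and whether counting used the strand is not given. Tmtc1 ran from 5.85 to 26.3 CPM (median 10.3) in adult and from 5.76 to 21.9 CPM (median 10.3) in aged libraries, with a log2 fold change of -0.04 (SE 0.14; edgeR adjusted p = 0.834).

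**Figure D3:**
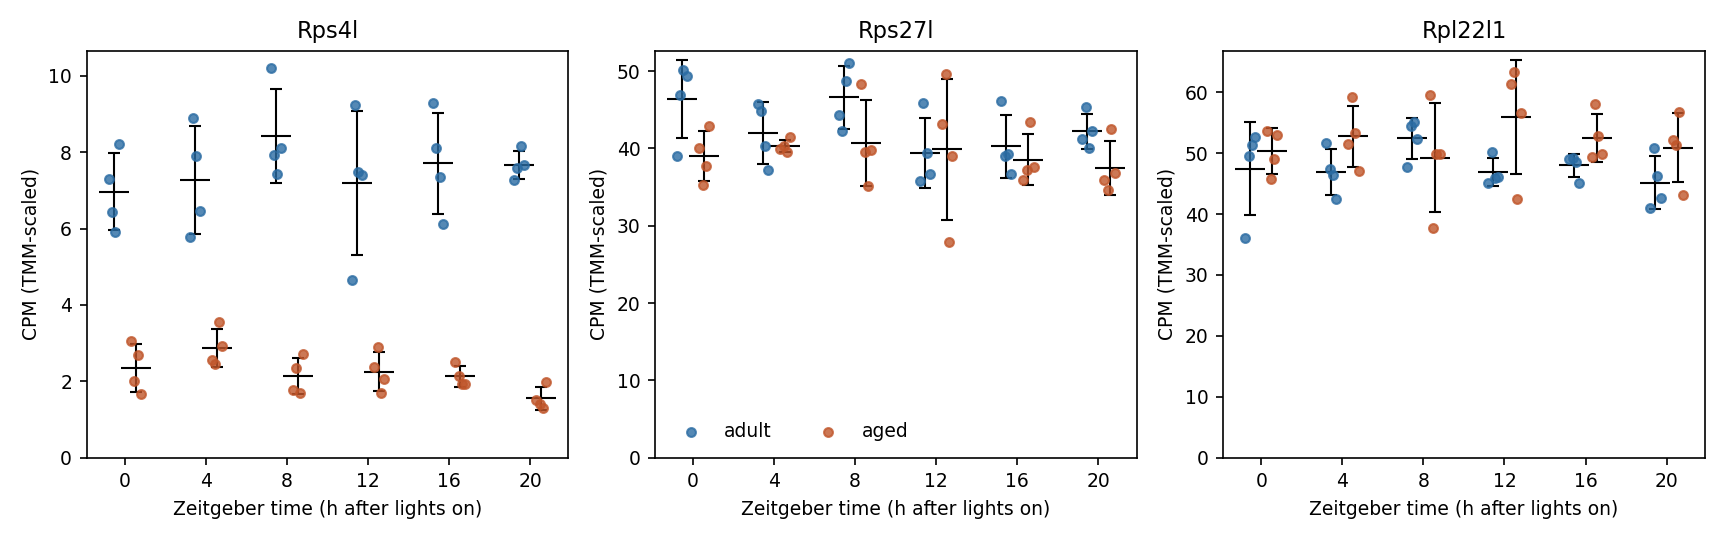
CPM (vertical axis) of Rps4l, Rps27l and Rpl22l1 against Zeitgeber time in hours, adult in blue and aged in orange, with points for libraries and a black dash and bars for the mean and SD of 4. The ages are apart at every time in Rps4l (adult 4.66 to 10.2, aged 1.31 to 3.55 CPM) and overlap at every time in Rps27l and at every time but ZT16 in Rpl22l1, where the aged libraries are higher.

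The paralogs moved little. Rpl22l1, which can take the place of Rpl22 in the large subunit, had 36.1 to 55.2 CPM (median 48.1) in adult and 37.6 to 63.3 CPM (median 51.8) in aged libraries. Its log2 fold change was 0.12 (SE 0.05; edgeR adjusted p = 0.0392), and the ages overlapped. The call was lost without any 1 of 17 of the 48 libraries and when libraries were scaled to the summed ribosomal protein counts (0.07, edgeR adjusted p = 0.234). An antisense gene, Gm33051, overlaps it. Its partner Rpl22 had 0.07 (SE 0.05).

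Rps27l, a p53 target and paralog of Rps27, had 35.8 to 51.1 CPM (median 42.2) in adult and 27.8 to 49.6 CPM (median 39.5) in aged libraries. Its log2 fold change was -0.12 (SE 0.05; edgeR adjusted p = 0.0400), with the ages overlapping. The call was lost without any 1 of 18 of the 48 libraries. It was kept when libraries were scaled to the summed ribosomal protein counts (-0.17, edgeR adjusted p = 0.00119). Because the canonical median over all times was 0.05, that scaling moves genes outside the sum down by construction, Rpl22l1 included. The lower value on this scale is thus not separate evidence of a fall. Rps27 itself had 0.07 (SE 0.05). The other copies were not called, at -0.01 (SE 0.02) for Rpl7l1, which in human cells sits on large subunits under assembly, -0.01 (SE 0.04) for Rpl36al and 0.06 (SE 0.05) for Rpl32l. Rps19bp1 had -0.09 (SE 0.05).

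At single times the block sat higher or lower in aged epidermis as a whole, with the sign changing from time to time. The median log2 fold change of the 77 canonical genes was -0.18 at ZT0 (73 negative), 0.17 at ZT4 (77 positive), -0.02 at ZT8 (48 negative), 0.17 at ZT12 (77 positive), -0.08 at ZT16 (73 negative) and 0.20 at ZT20 (77 positive). Since the genes move together from library to library, such counts of signs do not hold 77 separate observations. Medians of all genes tested lay between -0.01 and 0.02. The 2 subunits were alike, at 0.20 for the large and 0.20 for the small subunit at ZT20 and -0.18 and -0.17 at ZT0.

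**Figure D4:**
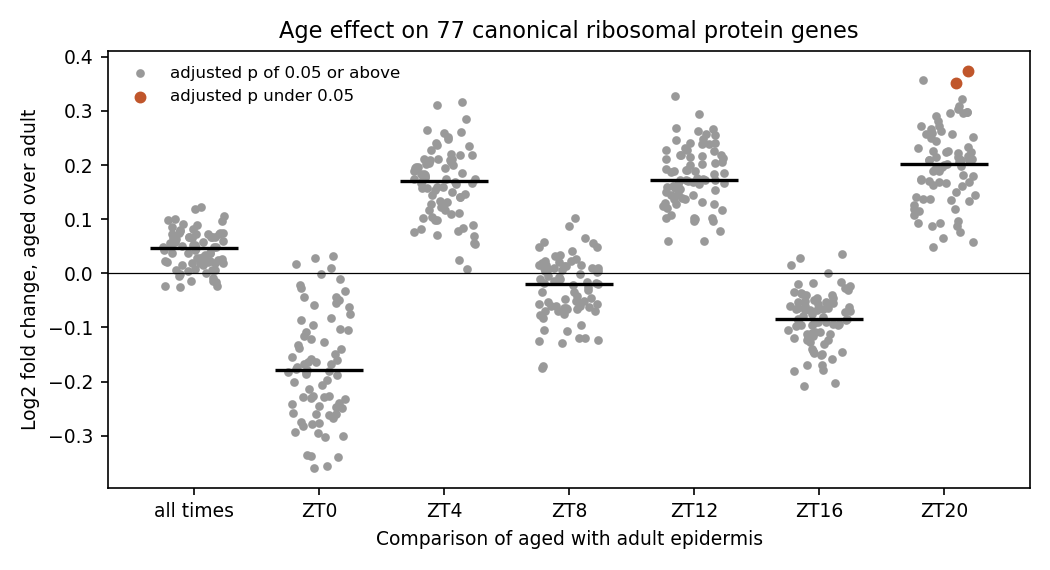
Log2 fold change of aged over adult (vertical axis) for each of the 77 canonical genes, over all times and at each time (horizontal axis). Points are genes with random sideways shift, black lines are medians, and orange marks an edgeR adjusted p under 0.05, which Rps15a and Rpl36 reached at ZT20. The whole cloud shifts down at ZT0 (median -0.18) and up at ZT4, ZT12 and ZT20 (medians 0.17, 0.17 and 0.20).

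Few of these shifts passed for a single gene. At ZT0, ZT4, ZT8, ZT12 and ZT16 no canonical gene was called by edgeR, and Rps4l was the only member called, on the lower side. Without adult ZT12 replicate 2, 11 members (12.8%) were higher at ZT12, against 1.16% of all genes in the same fit. DESeq2 called Rpl27 as well, lower at ZT0. At an unadjusted p under 0.05 the canonical genes numbered 20, 9, 0, 9 and 0 at these times, beside 20.6%, 7.47%, 20.1%, 15.2% and 18.3% of all genes. All genes tested were called lower in 2.02%, 0.266%, 1.16%, 0.599% and 0.881% of cases at these times, and higher in 2.44%, 0.366%, 1.03%, 0.504% and 1.09%. At ZT20 the members called were Rps4l, lower (10.5% of all genes), and Rps15a and Rpl36, higher (9.54% of all genes). Rps15a, a small subunit protein, had 242, 265, 255 and 280 CPM in adult and 350, 339, 352 and 287 CPM in aged ZT20 libraries, which do not overlap. Its log2 fold change was 0.35 (SE 0.11; edgeR adjusted p = 0.0265). Rpl36, a large subunit protein, had 119, 127, 118 and 136 CPM in adult and 171, 181, 157 and 139 CPM in aged ones, again without overlap, and a log2 fold change of 0.37 (SE 0.14; edgeR adjusted p = 0.0489). The call of Rps15a was lost without any 1 of 5 of the 8 ZT20 libraries (adult replicates 1 and 2 and aged replicates 1, 2 and 3), and that of Rpl36 without any 1 of 7, all but aged replicate 4. Without aged replicate 4, the lowest of its group in both genes, 9 members (10.5%) were higher at ZT20, against 9.84% of all genes in the same fit. Most of the stretches of Rpl36 (81.1%) also occur in copies, against 6.28% for Rps15a.

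At ZT0 the values of 27 of 86 members (31.4%) lay lower in all aged than in all adult libraries, against 8.92% of all genes tested, and 25 of the 27 were canonical. Because the canonical genes move together from library to library, these 25 are not separate observations. The same holds for the other counts of members set beside shares of all genes. Rpl27, with a smaller p than any other member for the age by time test, had 199, 231, 224 and 223 CPM in adult and 175, 150, 174 and 184 CPM in aged ZT0 libraries. Its highest aged value stayed under its lowest adult one, and its log2 fold change was -0.36 (SE 0.12; edgeR adjusted p = 0.0643). Rpl34 had 183, 208, 204 and 219 CPM in adult and 163, 140, 166 and 167 CPM in aged ones, also without overlap, at -0.36 (SE 0.13; edgeR adjusted p = 0.0947). At ZT20 5 members (5.81%) lay higher in all aged libraries, against 12.3% of all genes. They were Rpl17, Rpl30, Rpl36, Rps15a and Rps27a.

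Markers moved at these times as well. At ZT20 the summed CPM of the 7 differentiated keratinocyte markers was 6975 to 10799 in adult and 4983 to 5725 in aged libraries, with 5 of 7 lower and 0 higher, and that of the 7 basal markers 10183 to 12433 and 12059 to 14514, with 1 of 7 higher. At ZT0 the differentiated sums were 4883 to 7754 in adult and 5952 to 7794 in aged libraries and the basal sums 12902 to 13799 and 12952 to 14468, with 0 of 7 called on either list. The list called at ZT0 was that of the 7 hair follicle and outer root sheath markers, with 3 of 7 lower (Cd34, Krt17 and Krt79) and sums of 1905 to 2299 CPM in adult and 1200.2 to 1485 CPM in aged libraries. At ZT20 4 of these 7 were lower, Sox9 added, with sums of 2197 to 2424 and 1057 to 1592 CPM. The same 4 were lower over all times, with medians of the sum of 2175 CPM in adult and 1423 CPM in aged libraries. Over all times 2 of the 7 basal markers were higher, and 4 of the 7 differentiated markers were lower and 1 higher. The sums of the 7 Langerhans markers at ZT0 were 153 to 390 in adult and 117 to 179 in aged libraries, with 0 of 7 called. Their part in the shifts of the ribosomal protein genes was not tested.

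Whether the age effect differed between times was asked of each gene directly. None of the 86 passed in edgeR (all genes 0.283%) or in DESeq2, and 21 of 86 did at an unadjusted p under 0.05 (all genes 17.1%). Without adult ZT12 replicate 2, 2 members passed (all genes 1.12%), and without aged ZT12 replicate 3, 3 members did (all genes 1.48%). The smallest p were those of Rpl27, Rpl34, Rps13, Rpl12 and Rps21, with adjusted p from 0.154 to 0.182. Their log2 fold changes were alike, from -0.36 to -0.26 at ZT0 and from 0.21 to 0.30 at ZT20. The spread at ZT12 entered this test through the shared estimate of variability. With the 8 ZT12 libraries left out, a choice made after seeing that these genes spread most there, 22 of 86 passed (all genes 5.8%), 16 were lower at ZT0 (all genes 3.91%) and 33 higher at ZT20 (all genes 13.2%). The SE of Rpl34 at ZT20 was 0.13 with and 0.09 without those libraries, and its log2 fold change was 0.26 and 0.27. From the 8 libraries of a single time alone, 21 members were lower at ZT0 (all genes 7.01%) and 11 higher at ZT20 (all genes 10.3%). The counts at single times thus depend on which libraries set the spread, while the medians of the canonical genes kept their sign without ZT12 and under the size factors of DESeq2.

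One gene followed the time of day apart from the block. Rps16, a small subunit protein whose tail reaches the transfer RNA at the decoding groove, was low at ZT4 and high from ZT12 to ZT20 in both ages. In adult epidermis it had 160, 126, 118 and 95.6 CPM at ZT4, 188, 287, 156 and 187 at ZT12, and 244, 218, 234 and 198 at ZT16. In aged epidermis it had 133, 122, 128 and 162 CPM at ZT4, 284, 289, 171 and 203 at ZT12, and 191, 183, 201 and 215 at ZT16. The ZT4 and ZT16 libraries did not overlap in either age. A 24 h cosine had an amplitude (log2, mean to peak) of 0.37 with a peak at ZT16.4 in adult (edgeR adjusted p = 0.00140) and of 0.41 with a peak at ZT15.6 in aged epidermis (edgeR adjusted p = 0.000572). It stayed called without any 1 of the 24 libraries of either age. The rhythms of the ages did not pass the test of their difference (edgeR adjusted p = 0.958), and over all times the log2 fold change with age was -0.01 (SE 0.06).

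Relative to the other ribosomal protein genes, Rps16 was lower at the earlier times than at the later ones. Whether this change was a step or a smooth wave was not tested. Set against the summed counts of the 77 canonical genes, Rps16 stood at 0.334% to 0.490% in the libraries of ZT0, ZT4 and ZT8. It stood at 0.567% to 0.688% in those of ZT12, ZT16 and ZT20. These ranges do not meet in any of the 48 libraries, although the times were joined this way after seeing the values. Scaled to the summed canonical ribosomal protein counts, the amplitudes were 0.40 and 0.43, and Rps16 was the only member called in either age, where 4.08% (adult) and 2.6% (aged) of all genes were. Within Rps16 on the same strand lies the small nucleolar RNA gene AF357399. It had 51 to 119 counts per library and did not pass as rhythmic (edgeR adjusted p = 0.204 in adult and 0.301 in aged). Of the 50-base stretches of Rps16, 40.1% occur in other genes, Rps16-ps2 above all.

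**Figure D5:**
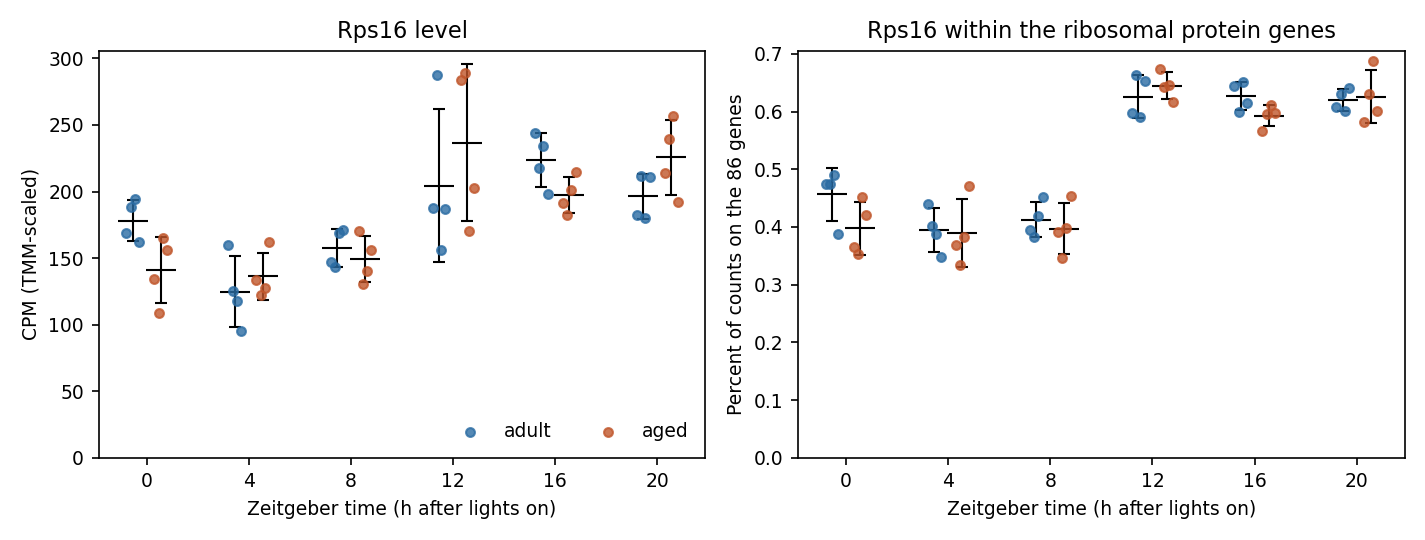
Rps16 as CPM (left) and as percent of the counts on the 77 canonical ribosomal protein genes (right) against Zeitgeber time in hours, adult in blue and aged in orange, with points for libraries and a black dash and bars for the mean and SD of 4. The axis label on the right names the 86 genes, but the percent is of the canonical ones. On the right the libraries of ZT0, ZT4 and ZT8 stay at or under 0.490% and those of ZT12, ZT16 and ZT20 at or over 0.567%.

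The other members showed little of this. In adult epidermis 2 of 86 were called rhythmic (all genes 14.6%), Rps16 and Rpl7l1, and in aged epidermis 1 (all genes 5.87%), Rps16. Rpl7l1 had an amplitude of 0.08 with a peak at ZT18.1 in adult (edgeR adjusted p = 0.0272), and 0.02 in aged epidermis (edgeR adjusted p = 0.879), and no member passed the test of a difference between ages, nor did any gene (0%), and DESeq2 called no member either. At an unadjusted p under 0.05 this test took 0 of 86 members and 7.35% of all genes. The adult call of Rpl7l1 was lost without any 1 of 3 libraries (ZT4 replicate 2 and ZT8 replicates 1 and 4) and when scaled to ribosomal protein counts. A noncoding gene, Gm26904, overlaps Rpl7l1 on the opposite strand. The amplitudes of the other 76 canonical genes had a median of 0.06 in adult and 0.05 in aged epidermis and reached at most 0.13 and 0.14. Their lowest edgeR adjusted p was 0.358 in adult and 0.371 in aged. As these rhythms did not pass, the medians of their fitted peaks (ZT4.4 in adult and ZT8.0 in aged) are not read as a shift with age.

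Scaling each library to its canonical ribosomal protein counts takes out the shifts of the block by construction and leaves how each gene moves relative to it. Of the canonical genes, Rpl36a was then called higher over all times (0.08, edgeR adjusted p = 0.0281) and Rpl36 higher at ZT20 (0.18, edgeR adjusted p = 0.0463). Rpl36al, the paralog of Rpl36a, was called lower at ZT20 (-0.21, edgeR adjusted p = 0.0417), as were Rps27l (-0.35, edgeR adjusted p = 0.00784) and Rps4l. These copies are outside the scaling sum. The canonical median was 0.20 at ZT20 before this scaling, so a gene outside the sum that stayed level comes out lower by construction. On this scale 6.94% of all genes were higher and 13.9% lower over all times, and 3.09% higher and 15.2% lower at ZT20. Of the stretches of Rpl36a 85.5% occur in other genes, so that its value is uncertain.

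Genes that make and regulate the ribosome were taken from lists of pathway members. Of 39 ribosome assembly factors, 18 were higher and 2 lower with age over all times, against 17% and 16.2% of all genes, with a median log2 fold change of 0.07. Among them were Gnl3 (nucleostemin) at 0.41 (SE 0.06) and Ncl (nucleolin) at 0.34 (SE 0.05), and Eif6, which keeps the subunits apart, fell by 0.16 (SE 0.03). Of 13 genes of RNA polymerase I transcription 3 were higher and 0 lower, against the same shares of all genes, with Taf1d at 0.24 (SE 0.04). Of 22 elongation factors and other TOP messenger RNAs 4 were higher and 0 lower, with a median of 0.04 over the list. The higher count was near the 17% of all genes. It was led by the small nucleolar RNA host Snhg1 at 0.31 (SE 0.07) and the nucleolar chaperone Npm1 at 0.20 (SE 0.05). Of the 8 dedicated chaperones of ribosomal proteins 2 were higher and 0 lower, against 17% and 16.2% of all genes. They were Tsr2, the partner of Rps26, at 0.10 (SE 0.04) and Nap1l1 at 0.07 (SE 0.02).

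Of 17 genes of the mTORC1 and TOP pathway 3 were higher and 4 lower, against 17% and 16.2% of all genes. Rheb, the activator of mTORC1, had 0.13 (SE 0.04) and Rps6kb1, S6 kinase, 0.10 (SE 0.02). The mTORC1 inhibitor Tsc2 fell by 0.13 (SE 0.03) and the mTORC1 subunit Mlst8 by 0.15 (SE 0.04). Of 13 genes of the Myc network 0 were higher and 5 lower, against the same shares of all genes, with Mxd1, a Myc antagonist, at -0.27 (SE 0.06). In adult epidermis 16 of the 39 assembly factors were rhythmic and in aged 6, against 14.6% and 5.87% of all genes. As examples chosen after their values were seen, Nob1, which trims the small subunit RNA, peaked at ZT15.8 in adult (amplitude 0.18) and ZT16.1 in aged epidermis (0.13), and Nop56, a core protein of guide RNA particles, at ZT16.0 (0.22) and ZT14.8 (0.23).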

How the data were processed

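The authors deposited raw counts per gene, whole numbers for 24996 Entrez gene identifiers in 48 libraries. Per the submitters' processing notes, Trim Galore, STAR 2.7.10a and featureCounts were used with the mouse genome mm10 (GRCm38). Annotation, strand setting and the treatment of reads with several matches are not stated there. Symbols came from the RefSeq table of GRCm38.p6, which named 23476 identifiers, and the others held 3.66% of all counts.

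Tests used edgeR 4.0.16 (R 4.3.3). The filter on low counts (minimum 10, minimum total 15) kept 18044 genes, all 86 members included. Scaling was by TMM, the trimmed mean of M values. Quasi-likelihood models, fitted robustly, had either 1 mean for each group (leaving 36 residual degrees of freedom) or a 24 h cosine per age (42), and gave two-sided F tests, adjusted after Benjamini and Hochberg over all genes tested. Both models were tested on simulated data. CPM values are counts per 1000000 of the scaled library, and log2 CPM used a prior count of 2. Intervals are at 95%.

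Members and lists were chosen with earlier results of these data known, and choices described as made after seeing values carry no independent weight. Genes named are up to 10 called in each direction with age, up to 4 at each time, 5 by smallest p for age by time and for the rhythm difference, up to 8 rhythmic in each age, and a fixed set of paralogs with their partners, stalk, p53-linked and ubiquitin-fused proteins. Alternatives were DESeq2 1.42.0, other scalings, other filters, a stricter threshold, a replicate block, fits of single times and leaving out libraries or times. Rows with -ps symbols were kept out of the members and not tested.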

Additional observations from a re-analysis of the deposited data

Results flagged for a closer look

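Of the 76 groups of 4 libraries checked for a library far from its group, 1 stood out, fewer than chance alone would flag at the 95% limit used. Rpl22l1 in adult ZT12 replicate 2 had 50.2 CPM, while the other 3 libraries of that group had 45.2 to 46.0 CPM. The same library had the highest summed share of ribosomal protein genes among adult libraries, 4.39%.

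The 27 rows whose symbols contain -ps, pseudogenes that the rule leaves out, held 8174 to 16987 counts per library in all, or 0.80% of the counts on the members. How many of their reads were shared with the parent genes was not tested.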

How the results depend on the processing

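Counts of members called moved by more than 1.5 times as follows. Higher with age over all times (1 member) became 0 with no low-count filter, without ZT20, without aged ZT20 replicates 1 and 2, without ZT12 and at an adjusted p under 0.01, became 3 (Rpl22l1, Rpl36a and Rpl39) with at least 1 CPM in 24 libraries, and ran from 0 to 10 with any 1 library left out, with 10 without adult ZT12 replicate 2 and 5 without aged ZT12 replicate 3. Lower with age (2) became 1, Rps4l, without ZT20, without that aged pair and at 0.01, and ran from 1 to 3 with 1 library left out, with 3 (Rps19bp1 added) without adult ZT12 replicate 1. Age by time (0) became 22 without ZT12 and ran from 0 to 3, with 2 without adult ZT12 replicate 2 and 3 without aged ZT12 replicate 3. Rhythmic in adult (2) became 1, Rps16, at 0.01 and with libraries scaled to ribosomal protein counts, and ran from 1 to 2. Lower at ZT0 (1) became 2 in DESeq2, with Rpl27 added, 16 without ZT12 and 21 from the 8 ZT0 libraries alone. Higher at ZT12 (0) reached 11 without adult ZT12 replicate 2, and lower at ZT12 (1) became 0 from those 8 libraries alone. Higher at ZT20 (2) became 4 in DESeq2 (with Rpl30 and Rpl32), 1 with no filter, 1 when scaled to ribosomal protein counts, 33 without ZT12, 11 from the 8 ZT20 libraries alone and 0 at 0.01, and ran from 0 to 9, with 9 without aged ZT20 replicate 4. Lower at ZT20 (1) became 3 when scaled to ribosomal protein counts, which at ZT20 sets genes that stayed level lower by construction. Calls under fewer samples or a stricter threshold differ by construction, and otherwise the cause was not tested. Shares of all genes were not counted for DESeq2, the other filters, the 0.01 threshold or the fits without ZT20 or the aged ZT20 pair. Counts under those settings thus show nothing particular to the members. In the main fit 9.54% of all genes were higher at ZT20. Leaving out ZT12 and scaling to ribosomal protein counts were chosen after seeing the data.

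Reversals were of log2 fold changes near 0 over all times, none of them called. Without ZT20, Rpl7l1 went to 0.0034, Rpl7 to -0.00029, Rpl26 to -0.0084 and Rplp1 to -0.011. Scaled to ribosomal protein counts, Rpl7 went to -0.023, Rpl26 to -0.0066, Rplp1 to -0.025, Rpsa to -0.0090 and Rpl11 to -0.0054. Rpl7 went to -0.010 without ZT12, and Rplp0 to 0.0031 with at least 1 CPM in 24 libraries.

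Replicate numbers did not pair the samples at every time. Of 24 same-numbered pairs of an adult and an aged library, 11 had a correlation of deviations over 0.1, and the 24 ran from -0.60 to 0.58. Replicates 1 to 4 had 0.58, -0.34, -0.05 and 0.36 at ZT4. They had -0.38, 0.47, 0.20 and 0.36 at ZT16, and -0.07, 0.34, 0.28 and 0.02 at ZT20. At ZT0 and ZT8 the highest were 0.09 and 0.06. Whether equal numbers mark a shared batch was not tested. At ZT12 alone all 4 pairs were over 0.1, from 0.16 to 0.42. From the 8 ZT12 libraries with the replicate block, chosen after seeing this, 0 members were higher and 0 lower, as in those libraries without the block. With the replicate number as a block, 1 member was higher and 2 lower with age over all times and 0 differed between times, as without it. Depth limited Rps4l, at few CPM, more than the canonical genes.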
